A study of Mus musculus with 8 samples.

Results

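The WAVE complex of cultured Lewis lung carcinoma (LLC) cells, a mouse lung carcinoma line, was examined gene by gene in cells with and without Ago2. Its 9 genes, Wasf1, Wasf2, Wasf3, Cyfip1, Cyfip2, Nckap1, Abi1, Abi2 and Brk1, were matched by symbol to the Ensembl identifiers of the count table, and all 9 were found among its 55487 genes. Wasf3 and Cyfip2 were chosen because their counts were near 0 in the knockout libraries in this same comparison, so their values are a description and no test is given for them. The other 7 entered as subunits or paralogs of the same complex. RNA-seq was made from 4 libraries of wild-type LLC cells and 4 libraries of LLC cells labelled as Ago2 knock-out, called ΔAgo2 below. No treatment is labelled, the medium was the same for all 8, and all carry the same batch label. The knockout was made with a lentiviral CRISPR-Cas9 vector under puromycin selection, followed by sorting of single cells. The sources used here do not say which clone or clones the ΔAgo2 libraries came from, nor whether the wild-type cells carried a control vector, so genotype, clone and vector cannot be told apart. The labels call the libraries biological replicates without describing separate cultures, so the p-values measure the spread between these libraries.

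The WAVE complex is the assembly through which the small GTPase Rac turns on branching of actin filaments at the leading edge of moving cells. A Wasf (WAVE) protein carries the region that activates the Arp2/3 complex. It is held inactive by a Cyfip protein, which binds Rac, together with Nckap1, an Abi protein and the small subunit Brk1. The Wasf, Cyfip and Abi positions can each be filled by one of several paralogs. Wasf2, Cyfip1 and Abi1 are the widely expressed ones, while Wasf1, Wasf3 and Cyfip2 are best known from brain, and Cyfip2 also from lymphocytes.

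The start regions of the genes that the comparison turns on are shown first, because Wasf3 and Cyfip2, which share a pattern of counts, have start regions of unlike composition. Each is the 300 bases from 250 before to 50 after the RefSeq transcript start, in the assembly GRCm38.p6, written 5′ to 3′ on the strand of the gene with every CpG in capitals. Of 10 genes looked up, 7 were in the RefSeq promoter table; Cyfip1, Nckap1 and Abi2 were not. The regions are chr5:146384756-146385055 on the plus strand for Wasf3, chr11:46312309-46312608 on the minus strand for Cyfip2 and chr4:133130383-133130682 on the plus strand for Wasf2, the Wasf paralog that was counted at a high level in all 8 libraries.
Wasf3: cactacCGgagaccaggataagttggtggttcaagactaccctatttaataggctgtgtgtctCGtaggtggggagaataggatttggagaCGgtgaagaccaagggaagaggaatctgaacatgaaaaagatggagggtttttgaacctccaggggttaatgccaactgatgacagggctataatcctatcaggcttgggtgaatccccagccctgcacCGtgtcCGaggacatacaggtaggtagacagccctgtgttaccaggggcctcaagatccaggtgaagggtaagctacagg
Cyfip2: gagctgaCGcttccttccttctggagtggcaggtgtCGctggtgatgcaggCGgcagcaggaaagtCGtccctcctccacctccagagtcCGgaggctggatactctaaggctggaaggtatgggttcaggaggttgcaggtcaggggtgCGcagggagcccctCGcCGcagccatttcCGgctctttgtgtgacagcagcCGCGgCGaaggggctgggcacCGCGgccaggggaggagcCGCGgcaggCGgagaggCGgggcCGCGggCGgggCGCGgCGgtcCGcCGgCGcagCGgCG
Wasf2: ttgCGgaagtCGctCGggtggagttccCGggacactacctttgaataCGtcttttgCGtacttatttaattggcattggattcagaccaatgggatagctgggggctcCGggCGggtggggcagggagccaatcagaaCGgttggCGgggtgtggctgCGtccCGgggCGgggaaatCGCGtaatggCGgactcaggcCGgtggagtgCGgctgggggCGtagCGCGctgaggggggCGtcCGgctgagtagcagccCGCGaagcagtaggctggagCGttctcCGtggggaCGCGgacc
The Wasf3 region held 5 CpG and was 50.7% G and C, and 62.0% of the 32841 promoters of the table held at least as many CpG. The Cyfip2 region held 29 CpG and was 70.7% G and C. The Wasf2 region also held 29, a number reached by 12.9% of all promoters. The median promoter held 7. The remaining members in the table lay between, with 27 CpG for Brk1, 17 for Wasf1 and 12 and 10 for both listed starts of Abi1. 4 motifs were searched on both strands. The GC box GGGCGG occurred in 35.7% of all promoters, the CCAAT box CCAAT in 37.4%, the E-box CACGTG in 7.15% and the TATA box TATAAA in 13.6%. The Wasf3 region held none of the 4. The Cyfip2 region held 1 GC box, and the Wasf2 region 2 GC boxes and 4 CCAAT boxes.

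The libraries held 39628101 to 68530912 counts. Of the 55487 genes, 14228 passed the filter on low counts and were compared between genotypes in edgeR by the quasi-likelihood test (two-sided, p adjusted after Benjamini-Hochberg over all of them). Of these, 42 genes (0.295% of those tested) had an adjusted p under 0.05. The count of Ago2 itself did not separate the genotypes (3842 to 34965 counts in wild-type and 12319 to 23871 in ΔAgo2 libraries, log2 fold change 0.21, edgeR adjusted p = 0.908). The ΔAgo2 libraries are named here by their labels. For the knockout the paper refers to a western blot of Ago2 protein, which RNA counts do not measure. Wild-type replicate 4 stood apart. Its median Spearman correlation with the other wild-type libraries was 0.864, against 0.948 to 0.961 for the other 3, and 0.540% of its counts were mitochondrial, against 2.39% to 4.51% elsewhere. Its signed difference in log2 CPM from the remaining wild-type libraries was lower for genes of low GC content and higher for genes of high GC content (Spearman correlation 0.72 over 14226 genes). The log2 fold changes of the 7 members not chosen on their values and the medians of gene lists are therefore given with and without it. So are those of most named genes near Wasf3 and Cyfip2. Other single genes have log2 fold changes from all 8 libraries only. Alveolar type II cells were not seen in any library, as Sftpb and Nkx2-1 were at 0 and Sftpc had at most 1 count. Epcam was also at 1 count or 0, while the keratins Krt8 and Krt18 and the mesenchymal genes Vim and Fn1 had 2570 counts or more in every library.

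Wasf3, one of the Wasf paralogs that activate Arp2/3, was counted 98, 50, 146 and 43 times in wild-type replicates 1 to 4. In ΔAgo2 replicates 1 to 4 it was counted 1, 0, 0 and 0 times. It was thus present at a low level in every wild-type library and at or below 1 read in every ΔAgo2 library, and the groups did not overlap. Per gene length, the deposited TPM of Wasf3 was 1.15, 0.52, 1.38 and 0.55 in wild-type replicates 1 to 4. It was 0.01 in ΔAgo2 replicate 1 and 0 in the other 3. Scaled to the library size, the wild-type mean of Wasf3 was 1.55 ± 0.667 CPM (counts scaled to the size of the library, SD, n = 4). A count of 3 in a ΔAgo2 library, taken as the floor, is worth 0.0488 to 0.0735 CPM there, and against the highest of these floors Wasf3 was at least 21.1-fold lower in ΔAgo2 cells. Against the lowest wild-type library, replicate 2, the bound was 9.64-fold. In bulk RNA, fewer cells that express a gene and less of its RNA per cell cannot be told apart.

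The other Wasf genes did not separate the genotypes. Wasf2, the paralog of most tissues, was at 75.52, 102.1, 90.85 and 90.79 TPM in wild-type replicates 1 to 4 and at 96.22, 87.23, 84.68 and 86.78 TPM in ΔAgo2 replicates 1 to 4. Wasf1, the paralog first known from brain, was at 25.17, 38.49, 28.54 and 20.42 TPM in wild-type and at 32.3, 30.25, 21.0 and 28.63 TPM in ΔAgo2 replicates. For both genes the ΔAgo2 values lay within the range of the wild-type ones. On the scale of CPM the log2 fold change of Wasf2 was -0.25 (standard error 0.25, edgeR adjusted p = 0.818), and that of Wasf1 was -0.19 (standard error 0.24, edgeR adjusted p = 0.855). The 95% intervals ran from -0.81 to 0.31 for Wasf2 and from -0.72 to 0.35 for Wasf1. Without wild-type replicate 4 the log2 fold change of Wasf2 was -0.045 and that of Wasf1 was -0.16.

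**Figure D1:**
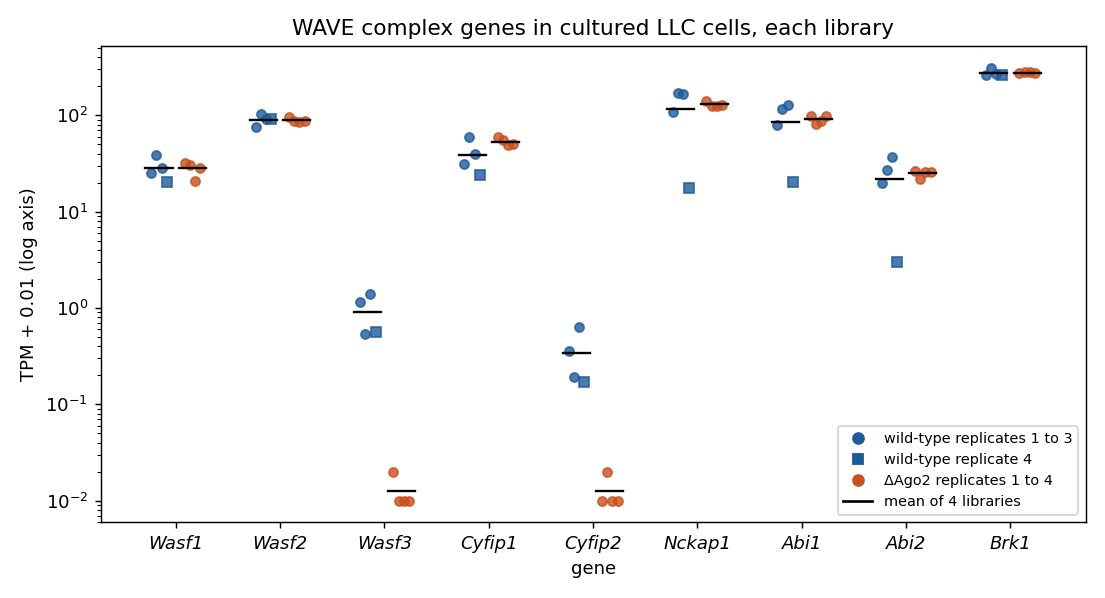
TPM + 0.01 of the 9 WAVE complex genes on a log axis, 1 point per library, for wild-type (blue, replicate 4 as a square) and ΔAgo2 cells (orange), with black bars for the means of 4. Wasf3 and Cyfip2 lie between 0.16 and 1.38 TPM in wild-type and at 0.01 TPM or 0 in ΔAgo2 libraries, the other 7 overlap between genotypes, and the wild-type square lies far below the other points at Nckap1, Abi1 and Abi2.

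Cyfip2, one of a pair of Rac-binding subunits, showed the same pattern as Wasf3 at a lower level. It was counted 40, 23, 87 and 16 times in wild-type replicates 1 to 4 and 0, 1, 0 and 0 times in ΔAgo2 replicates 1 to 4. Its TPM was 0.35, 0.18, 0.62 and 0.16 in wild-type libraries. It was 0.01 in ΔAgo2 replicate 2 and 0 in the other 3. The single read of Cyfip2 and the single read of Wasf3 came from different ΔAgo2 libraries. The wild-type mean of Cyfip2 was 0.732 ± 0.425 CPM (SD, n = 4), and the gene was at least 9.96-fold lower in ΔAgo2 cells, or at least 4.43-fold lower than the lowest wild-type library. The wild-type libraries took the same order for both genes in CPM: replicate 3 was highest, then replicates 1 and 4, and replicate 2 was lowest. Both genes passed the filter on low counts only through the wild-type group. Of the 9 members, 2 were called and 2 had groups that did not overlap, in both cases the chosen Wasf3 and Cyfip2. Both counts follow from how these 2 were chosen, and nothing is read from either. Over all tested genes 0.218% were called lower and 6.07% had groups that did not overlap.

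Cyfip1, the other Rac-binding subunit, was at 31.16, 59.28, 39.58 and 24.12 TPM in wild-type replicates 1 to 4. It was at 59.13, 55.48, 48.56 and 50.11 TPM in ΔAgo2 replicates 1 to 4. Wild-type replicate 2 was above all 4 ΔAgo2 values and the other 3 wild-type libraries were below them, so the groups overlapped. The log2 fold change of Cyfip1 in CPM was 0.32 (standard error 0.24, 95% interval -0.21 to 0.84, edgeR adjusted p = 0.760), the highest among the members, and 0.28 without wild-type replicate 4 (edgeR adjusted p = 0.538). Its sign was positive under every alternative tried, with values from 0.25 to 0.54, and none passed the threshold.

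Genes of nerve and blood cells were looked at beside Wasf3 and Cyfip2, since both are known from these cells. The neuronal marker Rbfox3 was at 0 in all 8 libraries, and the 3 neuronal markers Rbfox3, Snap25 and Syt1 summed to 0.08 to 4.03 TPM in wild-type and 0.19 to 1.16 TPM in ΔAgo2 libraries. Among the haematopoietic markers Cd3e was at 0 and Ptprc and Itgam had at most 2 counts in any library, while Cd68, a lysosomal protein of macrophages, was at 16.5 to 94.6 TPM in wild-type and 12.8 to 44.4 TPM in ΔAgo2 libraries. The 3 endothelial markers Pecam1, Cdh5 and Kdr summed to 0.03 to 0.30 TPM in wild-type and 0.17 to 0.75 TPM in ΔAgo2 libraries. The ranges of both sums and of Cd68 overlapped between genotypes. Within the neuronal list the tested markers went opposite ways. Syt1, a calcium sensor of synaptic vesicles, was counted 5, 11, 14 and 1 times in wild-type and 28, 18, 15 and 14 times in ΔAgo2 replicates, without overlap in CPM (log2 fold change 1.53). Syt1 passed the filter on low counts through the ΔAgo2 group, where it is high, so its values are a description and no p is given. Snap25, a protein of vesicle fusion, had a log2 fold change of -1.34 (edgeR adjusted p = 0.746) and overlapped. The part of such cells in the values of Wasf3 and Cyfip2 was not tested.

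The remaining subunits were counted in large numbers in both genotypes. Nckap1, the large subunit that pairs with Cyfip, was at 108.86, 170.91, 166.44 and 17.5 TPM in wild-type replicates 1 to 4. It was at 141.56, 126.11, 126.2 and 128.79 TPM in ΔAgo2 replicates 1 to 4. The ΔAgo2 libraries lay close together and within the wild-type range, which wild-type replicate 4 stretched downwards. Abi1, a subunit that links the complex to Abl kinases, was at 79.43, 115.67, 126.84 and 20.07 TPM in wild-type and at 98.33, 81.98, 86.31 and 99.02 TPM in ΔAgo2 replicates. Its paralog Abi2 was at 19.93, 26.81, 37.01 and 3.01 TPM in wild-type and at 26.35, 21.84, 25.83 and 25.95 TPM in ΔAgo2 replicates. Again replicate 4 alone among the wild-type libraries lay below all of the ΔAgo2 values by a wide margin. Brk1, the smallest subunit and the most abundant transcript of the 9 per gene length, was at 261.68, 312.6, 271.07 and 262.69 TPM in wild-type and at 272.96, 279.59, 283.15 and 275.78 TPM in ΔAgo2 replicates, a narrow range without separation.

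The direction of 3 of these genes rested on wild-type replicate 4. With all 8 libraries the log2 fold changes in CPM were 0.11 for Nckap1 (standard error 0.46, edgeR adjusted p = 0.963), 0.011 for Abi1 (standard error 0.38, edgeR adjusted p = 0.996) and 0.14 for Abi2 (standard error 0.48, edgeR adjusted p = 0.955). Without that library they were -0.21, -0.26 and -0.19, with edgeR adjusted p of 0.608, 0.554 and 0.742. The log2 fold change of Brk1 was -0.22 (standard error 0.24, edgeR adjusted p = 0.831) and -0.055 without the library. Relative to the mean of the other wild-type libraries, wild-type replicate 4 deviated in log2 CPM by -2.42 for Nckap1, -1.75 for Abi1 and -2.52 for Abi2, and by 0.67 for Wasf2 and 0.54 for Brk1. The exons of the first 3 were 45.9%, 41.0% and 42.6% G and C, below the median of 49.6% over tested genes, and those of Wasf2 and Brk1 were 54.4% and 50.2%. Cyfip1 did not follow this order, as its exons were 46.1% G and C, close to Nckap1, and it deviated by -0.15. Wasf1, at 50.2%, deviated by 0.074, and Wasf3 and Cyfip2, at 50.2% and 51.8%, by -0.12 and -0.48. The part of GC content in these deviations was not tested.

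Of the 7 members not chosen on their values, edgeR called 0, 0 had an unadjusted p under 0.05 and DESeq2 called 0, while over all tested genes 7.34% had an unadjusted p under 0.05 and DESeq2 called 2.23%. With all 8 libraries the 95% intervals of the log2 fold changes reached at most from -0.94 to 1.21, the limits for Abi2. Without wild-type replicate 4 they reached at most from -0.66, for Abi2, to 0.68, for Cyfip1. Every interval included 0, and a change within a gene's own interval is neither shown nor excluded.

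**Figure D2:**
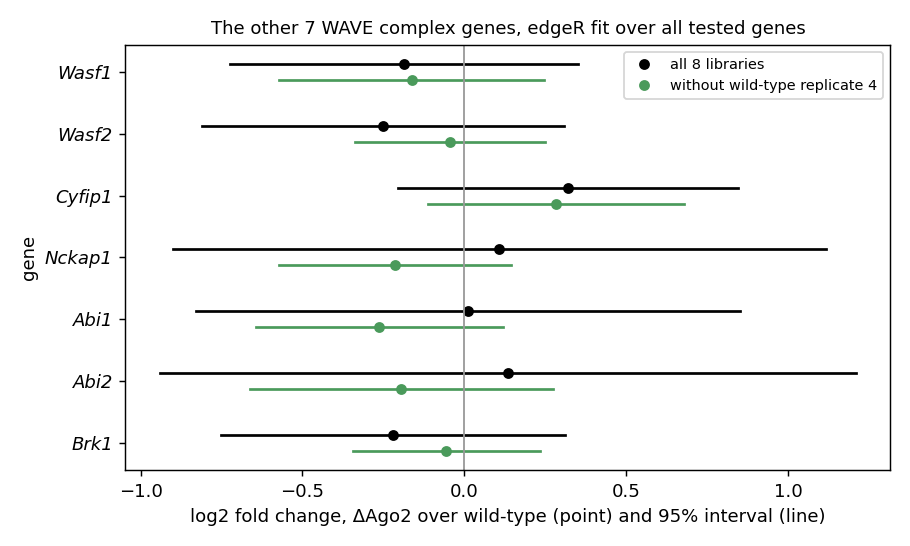
Log2 fold change of the other 7 WAVE complex genes, ΔAgo2 over wild-type, with 95% intervals, from edgeR with all 8 libraries (black) and without wild-type replicate 4 (green). Every interval includes 0, and Nckap1, Abi1 and Abi2 move from 0.11, 0.011 and 0.14 to -0.21, -0.26 and -0.19 without that library.

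Since TPM is scaled to gene length, the paralogs of a position could be set beside each other. Wasf2 made up 75.7% ± 3.85 (SD, n = 4) of the summed Wasf TPM in wild-type and 76.1% ± 2.71 in ΔAgo2 cells, and Wasf1 made up 23.5% ± 3.79 and 23.9% ± 2.71. Wasf3 made up 0.783% ± 0.411 in wild-type cells, from 0.369% to 1.14%, and at most 0.00778% in a ΔAgo2 library. Wasf2 thus exceeded Wasf3 by 65.7 to 196 times in the wild-type libraries. At the Cyfip position, Cyfip2 made up 0.904% ± 0.539 of the sum in wild-type cells, from 0.303% to 1.54%, and at most 0.0180% in a ΔAgo2 library, and Cyfip1 exceeded it by 63.8 to 329 times in wild-type libraries. The order of levels within both positions was the same in all 8 libraries, Wasf2 above Wasf1 above Wasf3 and Cyfip1 above Cyfip2, with no overlap between neighbours. Abi1 made up 81.4% ± 4.04 of the Abi sum in wild-type and 78.5% ± 1.04 in ΔAgo2 cells, the remainder being Abi2. Paralogs can share reads, and how the counting of genes handled reads with several matches is not given in the sources used here.

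**Figure D3:**
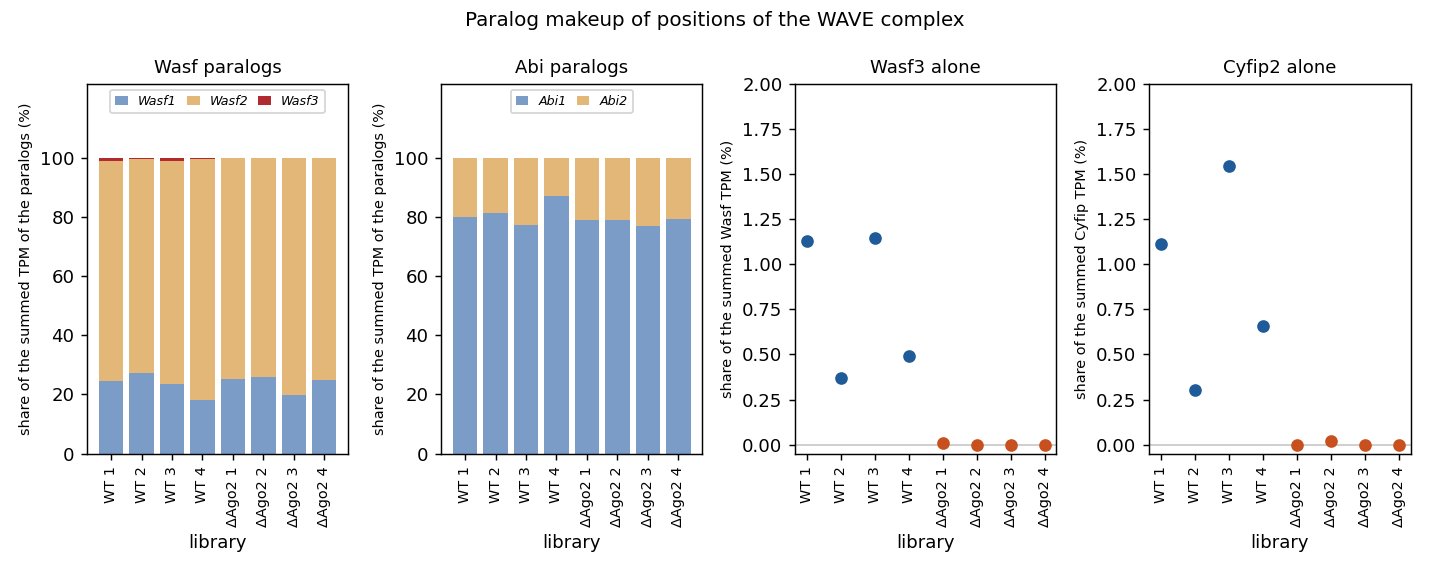
Shares of the summed TPM of each position's paralogs by library, stacked for Wasf and Abi (left) and as points for Wasf3 and Cyfip2 alone (right, axis to 2%). Wasf3 is at 0.369% to 1.14% and Cyfip2 at 0.303% to 1.54% in wild-type libraries and both lie near 0 in ΔAgo2 libraries, while the Wasf1, Wasf2, Abi1 and Abi2 shares overlap between genotypes.

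In mean TPM the members took the order Brk1, Nckap1, Wasf2, Abi1, Cyfip1, Wasf1, Abi2, Wasf3 and Cyfip2 in wild-type cells. The order of Wasf2 and Abi1 turned when wild-type replicate 4 was left out, with means of 89.5 and 107.3 TPM, and that of the others was kept. With all 4 wild-type libraries, only Brk1 at the top and the pair of Wasf3 and Cyfip2 at the bottom were clear of the genes next to them, and the values of Wasf3 and Cyfip2 overlapped each other. In ΔAgo2 libraries, where the spread was smaller, Brk1, Nckap1, the pair of Wasf2 and Abi1, Cyfip1, and the pair of Wasf1 and Abi2 formed successive levels without overlap, and the genes within each pair overlapped.

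The summed level of each position was of the same order in both genotypes. The Wasf genes together were at 118.9 ± 16.7 TPM in wild-type and 116.8 ± 9.37 TPM in ΔAgo2 cells (SD, n = 4 each). The Cyfip genes together were at 38.9 ± 15.2 and 53.3 ± 4.88 TPM, with wild-type libraries at 24.28 to 59.46 TPM and ΔAgo2 libraries at 48.56 to 59.13 TPM. The Abi genes together were at 107.2 ± 62.2 and 116.4 ± 10.3 TPM, Nckap1 at 115.9 ± 71.4 and 130.7 ± 7.37 TPM, and Brk1 at 277.0 ± 24.1 and 277.9 ± 4.45 TPM. Without wild-type replicate 4 the wild-type means were 135.2 ± 32.9 TPM for the Abi genes and 148.7 ± 34.6 TPM for Nckap1 (SD, n = 3), above the ΔAgo2 means instead of below them. All of these ranges overlapped between genotypes. Of the paralogs outside the 9 members, Nckap1l, the form of blood cells, was counted 163, 103, 44 and 67 times in wild-type and 109, 85, 45 and 105 times in ΔAgo2 replicates (log2 fold change -0.12, edgeR adjusted p = 0.963). Abi3 had 8 counts or fewer in every library and was not tested.

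The surroundings of Wasf3 and Cyfip2 in the genome were then examined, since position had not been used to choose them. In GRCm38, Wasf3 (ENSMUSG00000029636) spans bases 146384985 to 146473615 of chromosome 5, plus strand. Cyfip2 (ENSMUSG00000020340) spans bases 46193850 to 46312859 of chromosome 11, minus strand. The annotation holds 36 genes within 500 kb of Wasf3, of which 9 were tested, and 37 within 500 kb of Cyfip2, of which 8 were tested. Of these 17 genes, 1 was called lower in ΔAgo2 cells and 0 higher, beside 0.218% called lower among all tested genes. The same gene was the only one of the 17 whose groups did not overlap, beside 6.07% of all tested genes, so the number without overlap was near the background. This gene was Adam19, a membrane metalloprotease that sheds neuregulin and other surface proteins, which ends 46.5 kb from Cyfip2. It was counted 656, 121, 350 and 208 times in wild-type and 1, 0, 0 and 0 times in ΔAgo2 replicates. Adam19 was at least 90.8-fold lower in ΔAgo2 cells. Like Wasf3 and Cyfip2 it passed the filter only through the wild-type group, so its call is given as a description and without a p. Without ΔAgo2 replicate 1 edgeR called 0 of these neighbours and 1 gene in all.

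The values of the tested genes on either side of this pair overlapped between genotypes. Gm12166, 141.5 kb from Cyfip2 beyond Adam19, had a log2 fold change of 0.10. Farther out on that side, Thg1l, a tRNA guanylyltransferase, was at -0.30, Lsm11, of the histone pre-mRNA processing machinery, at -0.37 and Clint1, a clathrin adaptor, at -0.068. On the other side Med7, a Mediator subunit 124.1 kb away, was at -0.040 and Havcr2, the checkpoint receptor Tim-3, was at 0.57 with 25 to 817 counts over the libraries. Gm12169 had 1 count in all. The edgeR adjusted p of the tested genes of this locus other than Adam19 was 0.757 or higher. The 95% intervals, from all 8 libraries, ran from -0.73 to 0.94 for Gm12166 and from -1.14 to 0.55 for Thg1l. They ran from -0.95 to 0.22 for Lsm11 and from -0.67 to 0.53 for Clint1. Those of Med7 and Havcr2 ran from -0.83 to 0.75 and from -1.35 to 2.49. Each included 0, and a change within a gene's own interval is neither shown nor excluded. Without wild-type replicate 4 the named genes kept their signs. Gm12166 was then at 0.43, Thg1l at -0.22, Lsm11 at -0.39, Clint1 at -0.23, Med7 at -0.29 and Havcr2 at 0.23. Between Gm12166 and Med7, Adam19 and Cyfip2 were the only tested genes. The protein-coding genes Nipal4, Fndc9 and Fam71b, which also lie there, had 0 counts in wild-type and ΔAgo2 libraries alike. They cannot show a difference, so the counts do not mark out a stretch of the genome, and its part was not tested.

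Around Wasf3, edgeR called 0 of the 9 tested genes, 1 had an unadjusted p under 0.05 and DESeq2 called 1, in both cases Rasl11a. Over all tested genes these shares were 7.34% and 2.23%, and a single gene among 9 is not read as a result about the locus. The nearest tested genes were a pseudogene, Gm8494, with a log2 fold change of 0.075, and Cdk8, the Mediator kinase 82.1 kb away, with 594 to 5664 counts in wild-type and 3425 to 5457 in ΔAgo2 libraries (log2 fold change 0.56, edgeR adjusted p = 0.757). Rnf6, a ubiquitin ligase, was at 0.35, Usp12, a deubiquitinase, at 0.54, and the ribosomal protein gene Rpl21 at 0.31. Gtf3a, the transcription factor of 5S ribosomal RNA genes, was at -0.49 and Mtif3, a mitochondrial translation factor, at -0.37. Without wild-type replicate 4 the sign turned for Gtf3a (0.14), Mtif3 (0.052) and Gm8494 (-0.0040). Rnf6 was then at 0.026, Cdk8 at 0.27, Usp12 at 0.40 and Rpl21 at 0.26. Rasl11a, a Ras-like GTPase 371.5 kb away, was counted 54, 189, 223 and 207 times in wild-type and 81, 39, 29 and 49 times in ΔAgo2 replicates, and its log2 fold change was -1.79 (edgeR adjusted p = 0.364, DESeq2 adjusted p = 0.031). The groups of Rasl11a overlapped through wild-type replicate 1, and without wild-type replicate 4 its log2 fold change was -1.28. Gm5565, Gpr12 and 1700001J03Rik were counted too rarely to be tested.

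**Figure D4:**
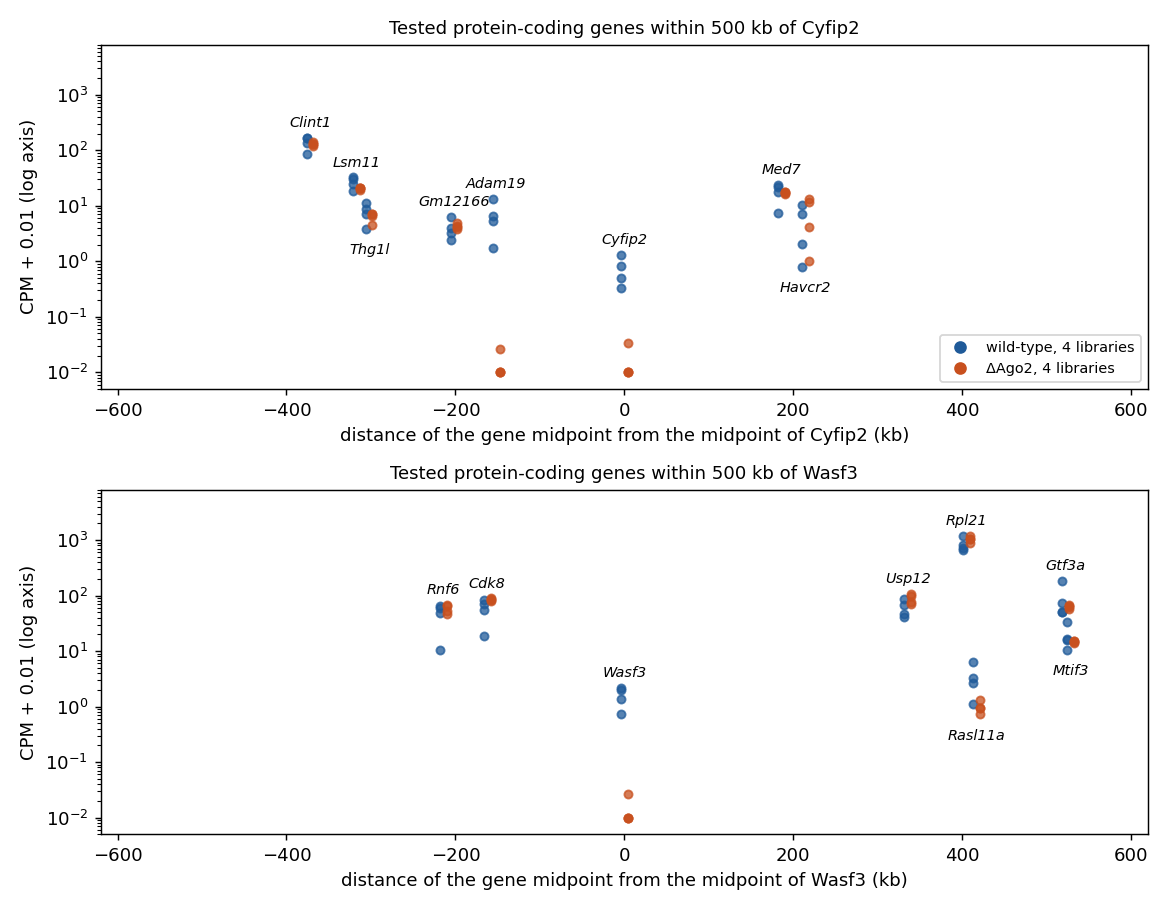
CPM + 0.01 on a log axis of the tested protein-coding genes within 500 kb of Cyfip2 (top) and Wasf3 (bottom), against the distance of the gene's midpoint, with 1 point per library for wild-type (blue) and ΔAgo2 cells (orange). Besides Cyfip2 and Wasf3, the ΔAgo2 points fall to the bottom of the axis only at Adam19, whose body ends 46.5 kb from Cyfip2.

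The genes whose log2 CPM was most like that of Wasf3 over the 8 libraries, by Pearson's r and among all tested genes, were Adam19 (0.993), Gm53 (0.991), Tbx5 (0.989), Gpc4 (0.988) and Cyfip2 (0.986). Tbx5 and Gpc4, a T-box transcription factor and a glypican, were at 0 in all 4 ΔAgo2 libraries, and Gm53, a long non-coding RNA gene, had 1 read in 1 of them. For Cyfip2 they were Mpc1-ps (0.993), Wasf3 (0.986), Pdk4 (0.981), Wnk4 (0.980) and Gpc4 (0.978). Mpc1-ps, a pseudogene, Pdk4, a pyruvate dehydrogenase kinase, and Wnk4, a kinase of ion transport, differed from Wasf3 and Gpc4 in that they were still counted in ΔAgo2 libraries, at 1.37 ± 0.135, 0.786 ± 0.128 and 0.899 ± 0.130 CPM (SD, n = 4), against 2.77 ± 0.469, 4.45 ± 2.34 and 2.18 ± 0.304 CPM in wild-type cells. Adam19, the neighbour of Cyfip2, came at position 12 for Cyfip2 (0.971). The 8 points of each pair of genes share their libraries and fall into the 2 genotypes, so these coefficients describe the likeness and come with no test.

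The genes around the complex were taken as 6 lists with 73 genes, of which 68 were tested. Of the 68, edgeR called 0, 3 had an unadjusted p under 0.05, beside 7.34% of all tested genes, and DESeq2 called 2, beside 2.23% of the genes it tested. DESeq2 also called Tiam1, which is not among the 68. Groups that did not overlap were found for 4 of the 68, beside 6.07% of all tested genes. Gmfg, described below, is among both the 3 and the 4, and it passed the filter only through the wild-type group, where it is high. The 68 genes had a median log2 fold change of 0.0029, against -0.11 for everything tested, and without wild-type replicate 4 it was 0.028 against -0.034.

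Upstream of the complex, 21 of 23 genes were tested. Prex1, an exchange factor that loads Rac with GTP, was counted 331, 124, 433 and 295 times in wild-type and 67, 40, 57 and 53 times in ΔAgo2 replicates. The groups did not overlap in CPM, at 6.02 ± 3.09 and 1.11 ± 0.200 (SD, n = 4), and the log2 fold change of Prex1 was -2.44 (standard error 0.51, edgeR adjusted p = 0.107, DESeq2 adjusted p = 0.00011). Tiam1, another Rac exchange factor, went the other way: it was at 0 in all 4 wild-type libraries and was counted 28, 13, 3 and 5 times in ΔAgo2 replicates. It was too low for the filter of edgeR, was singled out after its values were seen, and was at least 2.50-fold higher in ΔAgo2 cells against a floor of 3 counts per wild-type library. DESeq2, whose filter it reached through the ΔAgo2 group alone, called it, and no p is given for it. Arhgef7, an exchange factor of focal adhesions, had groups that did not overlap in CPM and a log2 fold change of 0.48 (edgeR adjusted p = 0.709). Rac3, a Rac paralog, was at -0.97 (edgeR adjusted p = 0.709). The median over the list was 0.00025.

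The targets and counterparts of the complex followed. Of the 10 genes of the Arp2/3 complex, 9 were tested, with 0 called by edgeR, 0 under an unadjusted p of 0.05 and 0 called by DESeq2. Their lowest p values belonged to Arpc4 (log2 fold change -0.68), Arpc1a (0.37) and Arpc5l (-0.33). The lists of other nucleation promoting factors (12 of 14 tested), of linear actin assembly (13 of 13) and of partners of Cyfip around FMRP (4 of 4) likewise had 0 called by edgeR, 0 under an unadjusted p of 0.05 and 0 called by DESeq2. Their first genes were Was at 1.21, Whamm at -0.54 and Wipf1 at 0.49, then Vasp at -0.67, Pfn1 at -0.89 and Diaph3 at 0.55, and then Fxr2 at -0.36, Fmr1 at 0.50 and Fxr1 at 0.22. The list of inhibitors and debranching factors of Arp2/3, with 9 genes, included Coro2a, a coronin whose own action on Arp2/3 was not examined here. Coro2a was counted 58, 15, 31 and 12 times in wild-type and 237, 157, 147 and 91 times in ΔAgo2 replicates. The groups did not overlap, and its log2 fold change was 2.53 (standard error 0.58, edgeR adjusted p = 0.169, DESeq2 adjusted p = 0.00030). Gmfg, a debranching factor, was counted 15, 30, 16 and 16 times in wild-type and 5, 3, 7 and 1 times in ΔAgo2 replicates, also without overlap (log2 fold change -2.09). It passed the filter on low counts only through the wild-type group, so its values are a description and no p is given for it. Coro1a was at -1.46 (edgeR adjusted p = 0.739). The median of this list was -0.45 and turned to 0.088 without wild-type replicate 4. Medians also turned for the Arp2/3 complex (-0.037 to 0.060), other nucleation promoting factors (0.16 to -0.0098), FMRP partners (0.19 to -0.10) and the upstream list (0.00025 to -0.034). That of linear actin assembly kept its sign (0.11 and 0.036). For Arpc4, Arpc1a and Vasp, wild-type replicate 4 lay apart from the other wild-type libraries.

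**Figure D5:**
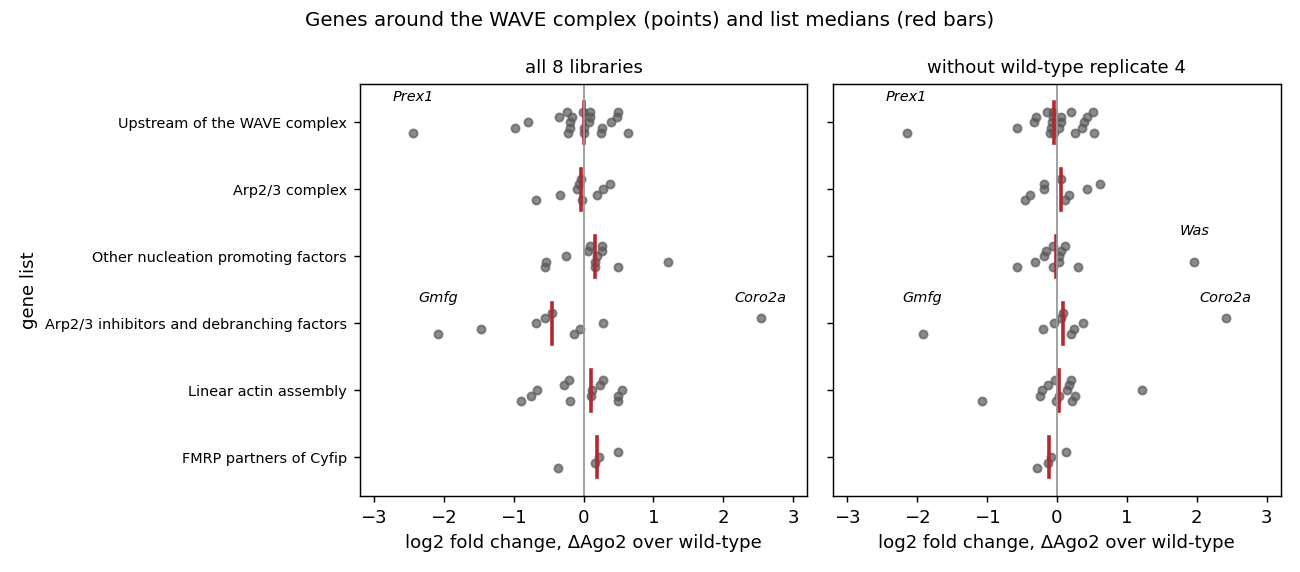
Log2 fold change, ΔAgo2 over wild-type, of the 68 tested genes in the 6 lists around the WAVE complex (points, spread vertically for view) with the median of each list (red bars), from all 8 libraries (left) and without wild-type replicate 4 (right). Prex1 and Gmfg lie at -2.44 and -2.09 and Coro2a at 2.53, and the medians lie between -0.45 and 0.19 with all libraries.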

How the data were processed

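RNA-seq of 8 libraries of cultured LLC cells, 4 wild-type and 4 ΔAgo2, was used, grouped by their labels. The authors prepared stranded mRNA libraries, aligned paired-end reads to mm10 with STAR and counted them on genes. The deposited counts are whole reads per gene without normalization, and the deposited TPM values are scaled by the authors to gene length and library total. The strand setting of the gene counting is not given in the sources used here, so overlapping and antisense genes could share reads.

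Genes were filtered with filterByExpr, scaled with TMM factors and tested with edgeR 4.0.16 (R 4.3.3), quasi-likelihood, two-sided, with Benjamini-Hochberg adjustment over 14228 genes and genotype as the only term. CPM is the count scaled to the total of these genes after TMM scaling. The square root of F divided into the log2 fold change gave its standard error. DESeq2 1.42.0 and limma 3.58.1 gave alternatives, with the filter, the scaling, the replicate block and each library left out as others. A group whose libraries all held at most 3 counts of a gene was taken as at the floor. Floors and intervals cover counting error or the spread between libraries only. Totals were 39628101 to 68530912 counts, so that 3 counts were 0.0425 to 0.0931 CPM. Names, positions and GC content came from GENCODE M21 (GRCm38), which did not hold 93 identifiers. Methods were tested on simulated data.

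Named are the 9 members, Nckap1l and Abi3, the 3 genes with the smallest p of each list, protein-coding genes counted within 500 kb of Wasf3 or Cyfip2, and the 5 genes most like each of these in log2 CPM with a prior count of 2. The members and the lists were chosen with earlier results of these data known. Same-numbered libraries of the genotypes are not described as made together, and the numbers were not treated as pairs. The results for 2 of the genes named by these rules are not reported here.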

Additional observations from a re-analysis of the deposited data

Results flagged for a closer look

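In each genotype the library farthest from the other 3 was examined by Dixon's ratio, the gap to the nearest library divided by the whole range. It was taken in log2 CPM for the members, Nckap1l, the 3 genes with the smallest p of each list and the tested protein-coding neighbours. Total counts and the mitochondrial share were examined in the same way. Of 88 groups 12 were above the critical ratio of 0.829, and chance gives about 1 in 20 for separate groups. These groups share the same libraries, so the number found is not read against that rate.

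In wild-type cells all 6 of these groups were set by replicate 4. Its ratio was 0.842 for Wasf2, 0.831 for Brk1, 0.931 for Arpc1a, 0.875 for Arpc4, 0.868 for Vasp and 0.859 for Rnf6. The library had 9246 counts of Arpc4, against 3486 to 5223 in the others, and 335 counts of Rnf6, against 2420 to 4485. In ΔAgo2 cells replicate 3 was low for Wasf1 (0.83) and for Thg1l (0.846), and replicate 4 was low for Coro2a (0.915), with 91 counts against 147 to 237. For Wasf3, Cyfip2 and Adam19 the ratio was 1, since 1 ΔAgo2 library held a single read and the other 3 held none.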

How the results depend on the processing

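Under all 17 alternatives 0 of the 7 members other than Wasf3 and Cyfip2 passed an adjusted p of 0.05. Directions that turned all belonged to changes that failed the threshold. With limma on log2(TPM + 1) and log2(TPM + 0.1), Wasf1 was at 0.013 and 0.014 and Brk1 at 0.0082 in both. Without 1 library, Nckap1 ranged from -0.21 to 0.34, Abi1 from -0.26 to 0.25 and Abi2 from -0.19 to 0.52, all lowest without wild-type replicate 4, and Abi1 was at -0.012 and -0.032 without ΔAgo2 replicates 1 and 4. The number of genes called, 42 in edgeR, was 399 in DESeq2, 143 with no filter on low counts and 15 with limma on log2(TPM + 1), and 1 to 113 with 1 library left out, 1 without ΔAgo2 replicate 1 and 113 without wild-type replicate 4. The shares of higher calls were 26.2% in edgeR, 53.3% with log2(TPM + 1) and 44.7% with log2(TPM + 0.1), where the median of all genes moved from -0.11 to 0.15 and 0.22. Upstream genes called numbered 2 in DESeq2 and with no filter, and 0 to 1 with 1 library left out, 1 without wild-type replicate 2. The inhibitor list had 1 in DESeq2. Called neighbours of Wasf3 and Cyfip2 numbered 2 in DESeq2, 0 with log2(TPM + 1) and 0 to 1 with 1 library left out, 0 without ΔAgo2 replicate 1. The cause of these shifts was not tested. All paralog shares moved by less than their SD.

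A replicate block in the fit gave 18 called genes. Same-numbered libraries correlated from -0.14 to 0.38 in their deviations from the group means, so the numbers were not taken as pairing. The block changed no call among the 7 members, the lists or the neighbours. Wasf3 and Cyfip2 are outside this count because no test is given for them, and the call of Cyfip2 was lost with the block.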

Other observations

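The pattern of Wasf3 and Cyfip2, at most 1 read in every ΔAgo2 library and at least 10 in every wild-type library, was shared by 16 of the 55487 genes, and the opposite pattern by 1. With up to 3 reads on the low side the numbers were 24 and 5. Among the 24 were the signalling genes Dkk1, an antagonist of Wnt, and Inhbb, an activin subunit, the transcription factors Tbx5, Lhx2 and Hoxc4, and the matrix gene Lama1, a laminin chain. Of the 24, 6 lay within 500 kb of another of them, as 3 pairs: Adam19 with Cyfip2, Gm53 with Hoxb5os, and Abi3bp with Tmem45a. How often any 24 genes lie this close was not worked out, so nothing is read from the number of pairs. Abi3bp, named for binding Abi3, was counted 38, 75, 664 and 43 times in wild-type and 0, 1, 0 and 1 times in ΔAgo2 replicates. The pattern and its limits were chosen after the values were seen, and no test was made.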
